A study of Mus musculus with 94 samples.

Results

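The 10 genes described here, Slc22a5, Cpt1a, Slc25a20, Cpt2, Crat, Acadvl, Acadl, Acadm, Hadha and Hadhb, encode proteins that take up carnitine, carry fatty acyl groups into mitochondria and oxidize them. They were chosen by name, and all 10 had a row among the 16069 genes of the deposited table. The cells were PV-ADSCs, mesenchymal stem cells of perivascular adipose tissue, from the fat around the aorta of c57/bl mice. The animals were 8 weeks old and no treatment or mutant allele is named for them. The sort kept CD144-/CD45-/CD29+/Sca1+ cells, that is, cells that lack a surface protein of endothelial cells and another of leukocytes and that carry an integrin and a stem cell antigen. They were sequenced directly after the sort, without culture, by SMART-seq v4, which copies transcripts over their full length, and each cell gave 1 library. Of 94 cells described, 85 were in the table and 9 were not analysed here. Which animal a cell came from is not stated. The cells therefore count as 1 sample of 1 condition, and the classes of cells are compared by values and intervals without a p value.

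The cells were divided by Dcn, which encodes decorin, a proteoglycan of fibroblasts and other stromal cells. The 58 cells with a deposited Dcn value of at least 1000 are called stromal cells, and the other 27 are called other cells. All 12 stromal markers had a row, and 57 of 58 stromal cells held at least 3 of them at 10 or more recovered reads. The summed stromal markers ranged from 94.2 to 143411 CPM (reads scaled to a common library total) in stromal cells and from 7.55 to 167 CPM in other cells, in which Col1a1, Pdgfrb, Clec3b and Fbln1 were at 0. Endothelial markers were present in the other cells although the gate excluded CD144, the product of Cdh5. In 24 of 27 other cells at least 3 of 15 endothelial markers reached 10 reads, compared with 3 of 58 stromal cells. The summed endothelial markers ranged from 0 to 14846 CPM in other cells and from 0 to 14184 CPM in stromal cells. Cell 50 was placed with the stromal cells by a Dcn value of 6521 that stands for 69 reads, and cell 34 of the stromal class held 6 endothelial and 10 stromal markers at 100 or more reads. Cell 50 sets the limits of the stromal class just given: without it, the lowest sum of stromal markers in a stromal cell was 20507 CPM and the highest sum of endothelial markers 2420 CPM, the latter in cell 34. Cells 18 and 29 of the stromal class each held all 6 mesothelial markers at 10 or more reads (3203 and 5569 CPM). Stromal cells held more genes above 0 than other cells (median 2813 against 1416) at similar depth (median 2963854 against 2714449 recovered reads). Most genes were therefore above 0 in a larger share of stromal cells.

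Fatty acids are activated to acyl-CoA in the cytosol and cannot cross the inner mitochondrial membrane in that form. Carnitine, brought into the cell by the transporter OCTN2 (Slc22a5), accepts the acyl group from CPT1 (Cpt1a) at the outer membrane. The carrier CACT (Slc25a20) exchanges the acylcarnitine across the inner membrane, and CPT2 (Cpt2) returns the acyl group to CoA inside. Carnitine acetyltransferase (Crat) moves short acyl groups, mainly acetyl, between CoA and carnitine. Within the matrix, the very long, long and medium chain acyl-CoA dehydrogenases (Acadvl, Acadl and Acadm) start each cycle of beta-oxidation, and the mitochondrial trifunctional protein, built from an alpha subunit (Hadha) and a beta subunit (Hadhb), completes it for long chains. The pathway is best known from heart, muscle, liver and brown fat, where nuclear receptors of the PPAR and estrogen-related receptor families control many of its genes.

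The sequences upstream of these genes were read from RefSeq promoters of the build GRCm38.p6, which is not the mm9 build the authors aligned to. A promoter of 300 bases was found for 9 of 10 members, and none was matched for Crat. Hadha and Hadhb lie head to head on chromosome 5, with 273 bases between their start sites, so that a single stretch precedes both. The 228 bases shared by their promoters, chr5:30155003-30155230 on the plus strand (the strand of Hadhb), are shown because the products of this pair work as partners in 1 protein. The GC box GGGCGG is in capitals.
Hadha and Hadhb, shared stretch: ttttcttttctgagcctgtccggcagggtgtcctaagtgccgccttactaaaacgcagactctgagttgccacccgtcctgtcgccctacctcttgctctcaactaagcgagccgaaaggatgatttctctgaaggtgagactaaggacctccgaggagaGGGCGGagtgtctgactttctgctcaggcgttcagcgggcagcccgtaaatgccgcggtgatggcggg

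Acadm had the largest difference between the classes, and the 250 bases before its start site, chr3:153944644-153944893 on the minus strand, are given with the motif AGGTCA, the core bound by nuclear receptors, in capitals where it was found in reverse complement.
Acadm: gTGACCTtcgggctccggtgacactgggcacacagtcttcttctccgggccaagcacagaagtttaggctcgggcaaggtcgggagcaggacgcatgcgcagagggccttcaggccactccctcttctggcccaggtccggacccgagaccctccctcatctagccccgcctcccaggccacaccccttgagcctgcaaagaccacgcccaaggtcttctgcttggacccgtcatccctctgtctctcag
AGGTCA was searched on both strands and was held by 3 of 9 member promoters (Acadm, Acadvl and Cpt1a), compared with 16.3% of 32851 mouse promoters of the same length. The longer motif of estrogen-related receptors, TCAAGGTCA, which contains AGGTCA, was in 0 of 9 member promoters and in 0.423% of all promoters. The GC box was in 7 of 9 (Acadl, Cpt2, Hadha, Hadhb, Slc25a20, Slc22a5 and Cpt1a) and in 35.7% of all, and the ETS motif CCGGAAG was in 2 of 9 (Cpt2 and Slc25a20) and in 8.86% of all. These matches describe the letters of the windows and not bound factors.

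The expression of all 10 members was sparse. The median member was above 0 in 15 cells, and no member was above 0 in more than 23 of 85 cells. Values are given as recovered reads. For 7 members these are the deposited normalized value divided by the scaling factor of its gene group and cell. The deposited values of the other 3, Crat, Cpt2 and Slc22a5, were whole numbers without a factor and were taken as reads. In all, the table held 141 values above 0 for the members, of which 23 stood for fewer than 10 reads and 107 for at least 100. Low values need care, as Dcn itself was above 0 in 27 of 27 other cells, at a median of 14 reads. The plot of reads per cell shows each of these values.

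**Figure D1:**
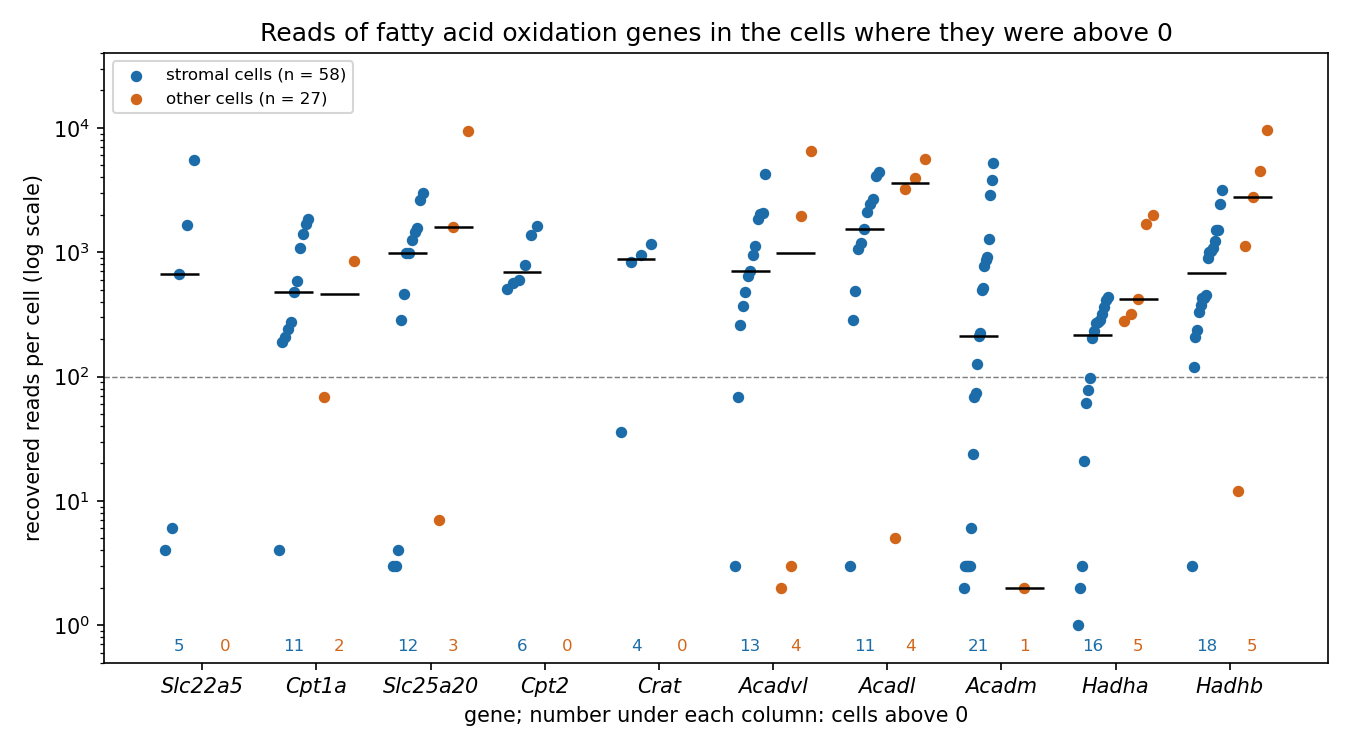
Recovered reads (log axis) of each member in each cell above 0, for 58 stromal cells (blue) and 27 other cells (orange). Points are cells in order of their reads, black bars are medians over cells above 0, the dashed line marks 100 reads, and the numbers count the cells. Crat, Cpt2 and Slc22a5 have no point among other cells, and the other-cell points of Hadha lie between 278 and 1986 reads while no stromal cell passes 433.

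Slc22a5, the plasma membrane carnitine transporter, was above 0 in 5 of 58 stromal cells (8.62%, exact 95% interval 2.86 to 18.98%) with 4, 6, 663, 1658 and 5492 reads. It was above 0 in 0 of 27 other cells, which allows a share of up to 11.1%. A single stromal cell held 70.2% of its reads. Slc22a21, a neighbour of the same transporter family with 90.2% identity over 3002 bases, was above 0 in 4 of the 5 cells with Slc22a5 and in 5 cells in all, so reads of the pair could be split between them. The fifth of these was an other cell with 1201 reads of Slc22a21, which bears on the count of 0 for Slc22a5 in that class.

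Cpt1a, the liver-type isoform of the enzyme that commits long-chain acyl groups to oxidation, was above 0 in 11 of 58 stromal cells (18.97%, interval 9.87 to 31.4%), from 4 through a median of 478 to 1841 reads. In other cells it was above 0 in 2 of 27 (7.41%, interval 0.910 to 24.3%), with 69 and 851 reads. Both other-cell values lie within the stromal range, and cell 20, which held the 851 reads, had the highest deposited Dcn value of the other cells (269, from 111 reads).

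Slc25a20, the carnitine and acylcarnitine carrier, was above 0 in 12 of 58 stromal cells (20.7%, interval 11.2 to 33.4%). Its stromal values ran from 3 through a median of 989.5 to 2975 reads, and 3 of these 12 cells, cell 50 among them, held no more than 4 reads. The count of 3 in cell 50 is in doubt, as it is a deposited value of 226.5 divided by a factor of 75.5. The other cells above 0 were 3 of 27 (11.1%, interval 2.35 to 29.2%), with 7, 1590 and 9382 reads. The highest of these, cell 58, held more reads than any stromal cell and carried 85.5% of all Slc25a20 reads in other cells.

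Cpt2, the inner partner of the shuttle, was above 0 in 6 of 58 stromal cells (10.3%, interval 3.89 to 21.2%) with 510, 560, 599, 785, 1380 and 1633 reads. Each of these values was well over 100 reads. No read was found in the 27 other cells, which again allows a share of up to 11.1%.

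Crat, which buffers acetyl-CoA by way of acetylcarnitine, was the rarest member. It was above 0 in 4 of 58 stromal cells (6.90%, interval 1.91 to 16.7%) with 36, 832, 945 and 1159 reads, and in 0 of 27 other cells (up to 11.1%). The intervals of the classes overlap for Crat, Cpt2 and Slc22a5, where the exact upper limit for 0 of 27 cells is 12.8%. The shares thus do not separate the classes with these numbers of cells, and a difference in share was not tested. The 4 cells with Crat were rich in detected genes, ranking 3, 6, 7 and 19 of 58 stromal cells by genes above 0. They also held other members: cell 41 held 6 members, the most of any cell (Crat, Cpt1a, Cpt2, Slc25a20, Acadm and Hadha), cell 64 held 5, and cells 26 and 79 held 3 each. As a description over 85 cells, the genes whose log2(value + 1) followed Crat most closely were Hars (Pearson r = 0.52), Snx24 (0.51) and Csnk1g1 (0.51), which share 3, 4 and 3 of its 4 cells. These values rest on few shared cells.

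Acadvl, the dehydrogenase for very long chains, was above 0 in 13 of 58 stromal cells (22.4%, interval 12.5 to 35.3%), from 3 through a median of 705 to 4282 reads. Among other cells it was above 0 in 4 of 27 (14.8%, interval 4.19 to 33.7%) with 2, 3, 1960 and 6562 reads, so the highest value of all belonged to an other cell. Dvl2 overlaps Acadvl on the opposite strand, over 256 bases of transcript, and was above 0 in 14 of the 17 cells with Acadvl. The kit does not mark strand, so reads in the overlap cannot be told apart.

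Acadl, the dehydrogenase for long chains, was above 0 in 11 of 58 stromal cells (18.97%, interval 9.87 to 31.4%), from 3 through a median of 1544 to 4442 reads. In other cells it was above 0 in 4 of 27 (14.8%, interval 4.19 to 33.7%) with 5, 3195, 3965 and 5577 reads. The classes overlapped, and 3 of the 4 other cells lay in the upper part of the stromal range or above it. A processed pseudogene within Acadl on the same strand, Gm15793, was above 0 in 34 cells, 5 of them shared with Acadl.

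Acadm, the dehydrogenase for medium chains, differed most between the classes. It was above 0 in 21 of 58 stromal cells (36.2%, interval 23.99 to 49.9%), from 2 through a median of 211 to 5261 reads. In other cells it was above 0 in 1 of 27 (3.70%, interval 0.0937 to 18.97%), with 2 reads. The intervals do not overlap. How many of all genes tested have separate intervals was not counted, so the separation cannot be called particular to Acadm. At 100 or more reads, 12 stromal cells and 0 other cells remained, and after every cell was thinned to 1146945 reads, 17 stromal cells and 0 other cells were above 0. The stromal values fell over a wide range, with 6 of 21 cells under 10 reads and 4 over 1000.

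Hadha, the alpha subunit of the trifunctional protein, was above 0 in 16 of 58 stromal cells (27.6%, interval 16.7 to 40.9%), from 1 through a median of 217 to 433 reads. It was above 0 in 5 of 27 other cells (18.5%, interval 6.30 to 38.1%) with 278, 320, 419, 1676 and 1986 reads. Hadha thus was above 0 in the larger share of stromal cells, yet the 2 highest values belonged to other cells, and at 100 or more reads its share was 15.5% of stromal and 18.5% of other cells. The intervals overlapped at both levels.

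Hadhb, the beta subunit, was above 0 in the most cells of any member, in 18 of 58 stromal cells (31.03%, interval 19.5 to 44.5%), from 3 through a median of 676 to 3159 reads. In other cells it was above 0 in 5 of 27 (18.5%, interval 6.30 to 38.1%) with 12, 1115, 2791, 4470 and 9620 reads. The top 2 of these exceeded every stromal cell. Gm13910, a processed pseudogene with 99.79% identity to 1428 bases of Hadhb, was above 0 in 19 cells, 16 of them among the 23 with Hadhb, and held a median of 0.321 reads per Hadhb read where both were above 0 in stromal cells. It was also the gene most like Hadhb over 85 cells (r = 0.66), ahead of Snrpert (0.44) and Agfg1 (0.42). The counts of Hadhb are therefore uncertain, as reads that match both loci could have been given to either.

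**Figure D2:**
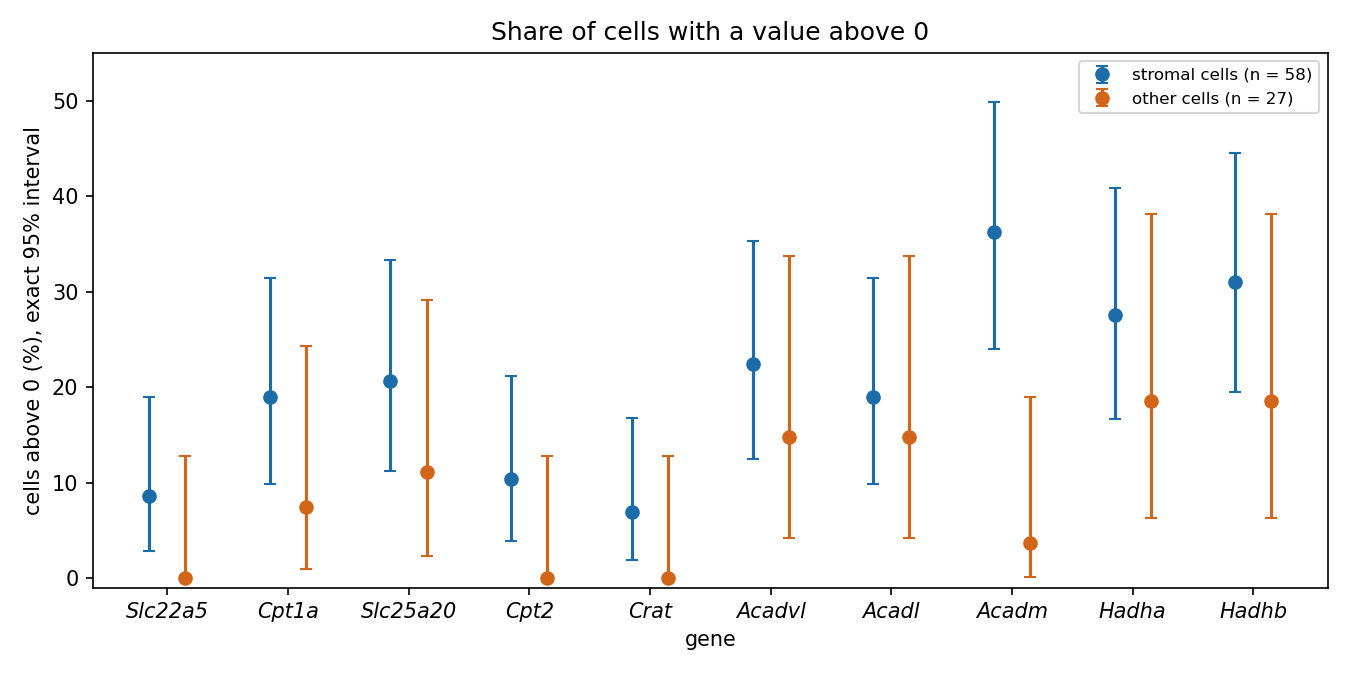
Share of cells above 0 for each member, as a percentage of 58 stromal cells (blue) or 27 other cells (orange), with exact 95% intervals that cover counting error only. The stromal point is the higher for all 10 members, as it is for 85.1% of all genes tested. The intervals separate for Acadm (36.2% against 3.70%) and overlap for the other 9. How many of all genes have separate intervals was not counted.

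All 10 members were above 0 in a larger share of stromal than of other cells. The same held for 85.1% of the 11478 genes above 0 in at least 3 cells, so this direction was shared with most of the transcriptome. The median member was above 0 in 19.8% of stromal and 9.26% of other cells, compared with 15.5% and 3.70% for all genes tested. The median gap in share was 9.32 percentage points for the members and 9.32 for all genes.

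**Figure D3:**
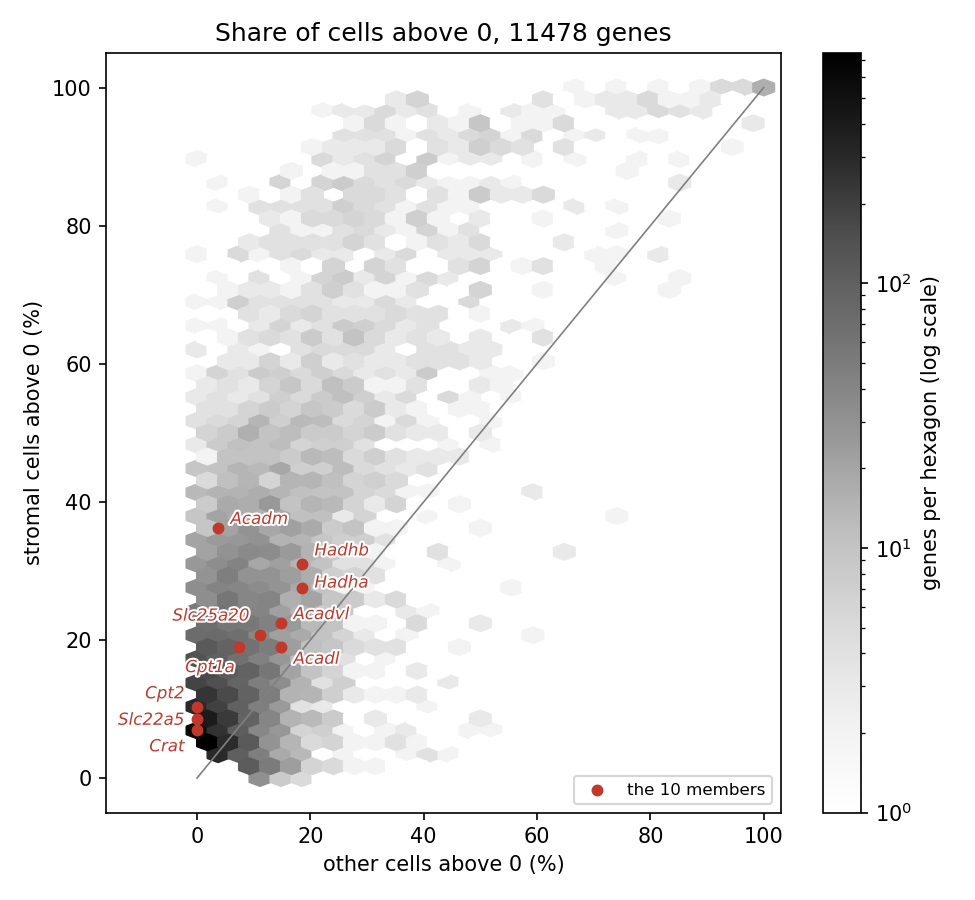
Share of other cells (x axis, %) against share of stromal cells (y axis, %) above 0 for 11478 genes, shaded by the number of genes per hexagon (log scale), with the 10 members in red and equal shares on the grey line. The members lie above the line, as 85.1% of genes do, and within the bulk of genes of similar shares.

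The class means of log2(value + 1) on the deposited scale were compared next. A gene was counted as different where the class means lay at least 1 apart, a rule of size and not a test. By it, 3 of 10 members (30%) were higher in stromal cells, Acadm by 2.40, Acadvl by 1.02 and Cpt2 by 1.001, while Cpt1a with 0.99 lay just below. Over all genes tested, 35.6% were higher in stromal cells by this rule and 2.84% in other cells, and 0 members were higher in other cells. The members were above 0 in more cells than genes in general (median 15 against 10 cells). Among genes above 0 in at least 10 cells, 60.3% were higher in stromal cells by this rule, with a median difference of 1.32, and for the 7 members in at least 10 cells these values were 2 genes and 0.88. The difference was smallest for Hadha at 0.02, and its sign was not stable, at -0.16 with log2(value + 10), -0.10 with log2(CPM + 1) and between -0.10 and 0.39 when 1 cell was left out. The median over the members was 0.76, compared with 0.64 over all genes. Mean log2(value + 1) of Acadm was 2.59 ± 4.16 (SD, n = 58) in stromal cells and 0.19 ± 0.99 (SD, n = 27) in other cells. The SD of Acadvl was 4.002 in stromal and 3.17 in other cells, and the stromal SD exceeded the gap between class means for both genes. Without cell 50, 4 members reached the rule, and without cell 34, 3. When each cell was left out in turn, between 2 and 4 members did, Acadm in all 85 cases, with a difference between 2.15 and 2.59. Acadvl fell to 0.84 without cell 18, which held mesothelial markers and the highest stromal reads of Cpt1a and Acadvl.

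The level over all cells of a class gave another order. Mean CPM was higher in other cells for 5 of 10 members, as it was for 32% of all genes tested. For Hadha it was 18.5 CPM in stromal and 75.98 CPM in other cells, and for Hadhb 91.3 and 264 CPM. Slc25a20 had 62.5 and 181 CPM, Acadl 116 and 162 CPM, and Acadvl 83.4 and 116 CPM. These means rest on few cells. Without the highest other cell of each gene, the other-cell mean was 34.7 CPM for Hadha (cell 17) and 105 CPM for Hadhb (cell 58), still above the stromal mean, but 23.04 CPM for Slc25a20 (cell 58), 95.8 CPM for Acadl (cell 88) and 26.5 CPM for Acadvl (cell 45), below it. Reads of Gm13910 cannot be told apart from those of Hadhb here either. Acadm had a mean of 111 CPM in stromal and 0.0429 CPM in other cells. Of the 24 member values above 0 in other cells, 13 (54.2%) reached 1000 reads, compared with 39 of 117 (33.3%) in stromal cells. Over all genes tested, these percentages were 33% and 25.3%. At 100 reads the order was the other way, with 70.8% of member values in other and 76.9% in stromal cells.

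Levels of different members were compared as CPM per kilobase of the longest coding transcript in GENCODE, over stromal cells above 0. The median was highest for Acadl (284), followed by Slc25a20 (169), Acadvl (122), Cpt2 (115), Hadhb (108), Slc22a5 (95.9), Crat (60.6), Acadm (29.9), Cpt1a (27.1) and Hadha (19.3). The quartiles of neighbours in this order overlapped throughout. Those of the first and the last did not, with 131 to 461 CPM per kilobase for Acadl and 4.58 to 25.2 for Hadha. The 2 subunits of the trifunctional protein, whose genes share the stretch shown above, thus stood apart in level, with 63.9 to 168 for Hadhb. The Hadhb level is uncertain because of Gm13910, and the cells differ, as only 5 stromal cells held both subunits. Broad detection and high level did not always go together, as Acadm and Hadha were above 0 in many cells at low medians. Hadhb, above 0 in the most cells, had a median of 108, and Crat, the rarest member, had 60.6.

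Members that work at the same step were also examined within cells, where the low shares of each gene leave few cells for more than 1 of them. Hadha or Hadhb was above 0 in 37 of 85 cells, and both in 7, of which 5 were stromal. These 7 cells were 33.3% of the cells with Hadha and 30.4% of those with Hadhb. At least 1 of Cpt1a, Slc25a20 and Cpt2 was above 0 in 25 of 58 stromal cells (43.1%, interval 30.2 to 56.8%) and in 4 of 27 other cells (14.8%, interval 4.19 to 33.7%), while all 3 were above 0 in 1 cell, the stromal cell 41. At least 1 of the dehydrogenases was above 0 in 33 of 58 stromal cells (56.9%, interval 43.2 to 69.8%) and in 7 of 27 other cells (25.9%, interval 11.1 to 46.3%), and all 3 in 2 stromal cells. By gene, the stromal and other cells above 0 were 21 and 1 for Acadm, 11 and 4 for Acadl, and 13 and 4 for Acadvl. Such shares were not computed for other sets of genes, and stromal cells held more genes above 0 in general. No cell held all 5 carnitine genes. A transcript missed in a cell cannot be told from one that was not there.

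**Figure D4:**
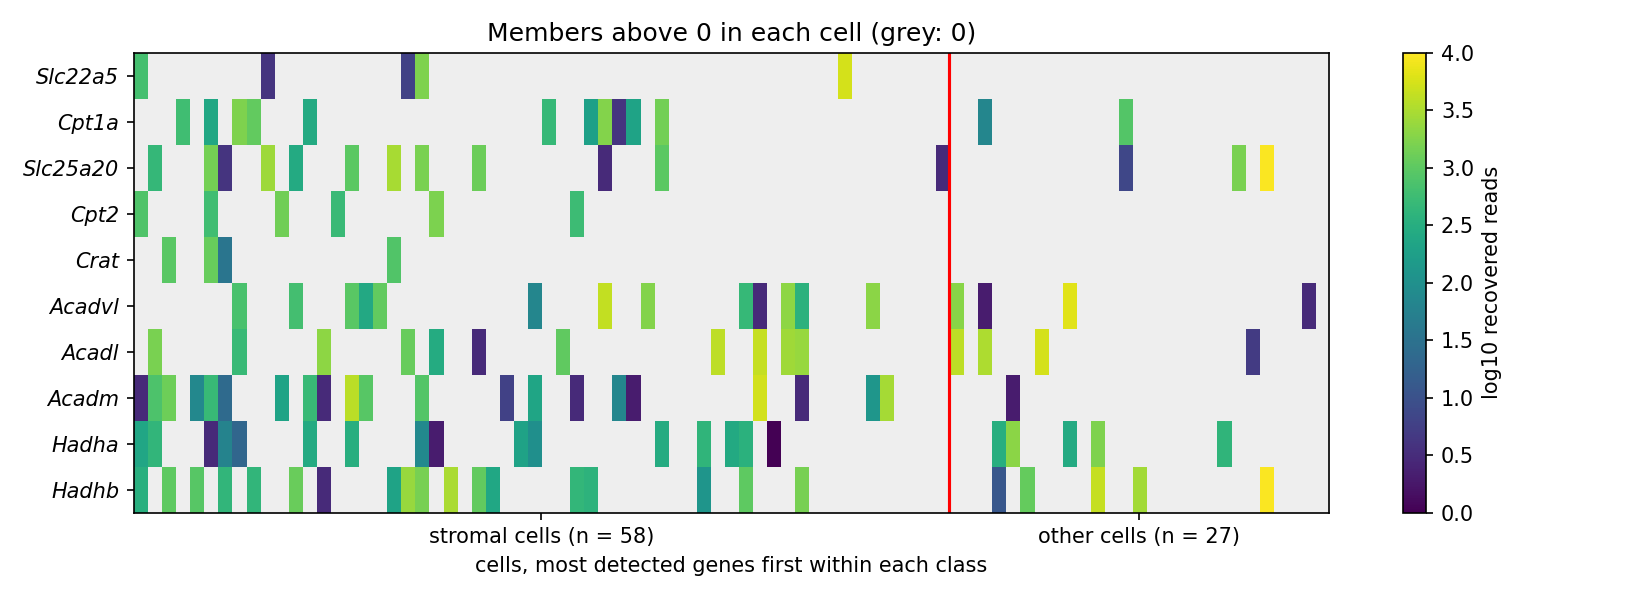
Members (rows, by role) above 0 in each of 85 cells (columns), coloured by log10 recovered reads, with grey for 0. Cells run from most to fewest detected genes within the stromal (left of the red line) and the other class. Values above 0 are scattered, thin out toward stromal cells with few genes, and fall on both Hadha and Hadhb in 7 cells.

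Per cell, the number of members above 0 had a median of 2 in stromal cells (range 0 to 6, mean 2.02 ± 1.48, SD, n = 58) and of 1 in other cells (range 0 to 3, mean 0.89 ± 0.93, SD, n = 27). No member was above 0 in 9 of 58 stromal cells (15.5%, interval 7.35 to 27.4%) and in 12 of 27 other cells (44.4%, interval 25.5 to 64.7%). At least 4 members were above 0 in 8 stromal and 0 other cells. Without cell 50, the medians stayed at 2 and 1. The count followed the number of all genes above 0 in the cell. Per 1000 detected genes, stromal cells held 0.703 members and other cells 0.692. Among stromal cells, the 29 with the most genes (2814 to 4148) held 77 member values above 0, and the 29 with the fewest (850 to 2812) held 40. As a description, Spearman's rho of members with genes was 0.55 over stromal and 0.38 over other cells, and rho with recovered reads was 0.27 and 0.06. The points are cells of 1 sample, and whether the number of genes accounts for the class gap was not tested. Among the other cells, the 24 with at least 3 endothelial markers held a median of 1 member and the remaining 3 a median of 0, with a median of 377 genes.

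**Figure D5:**
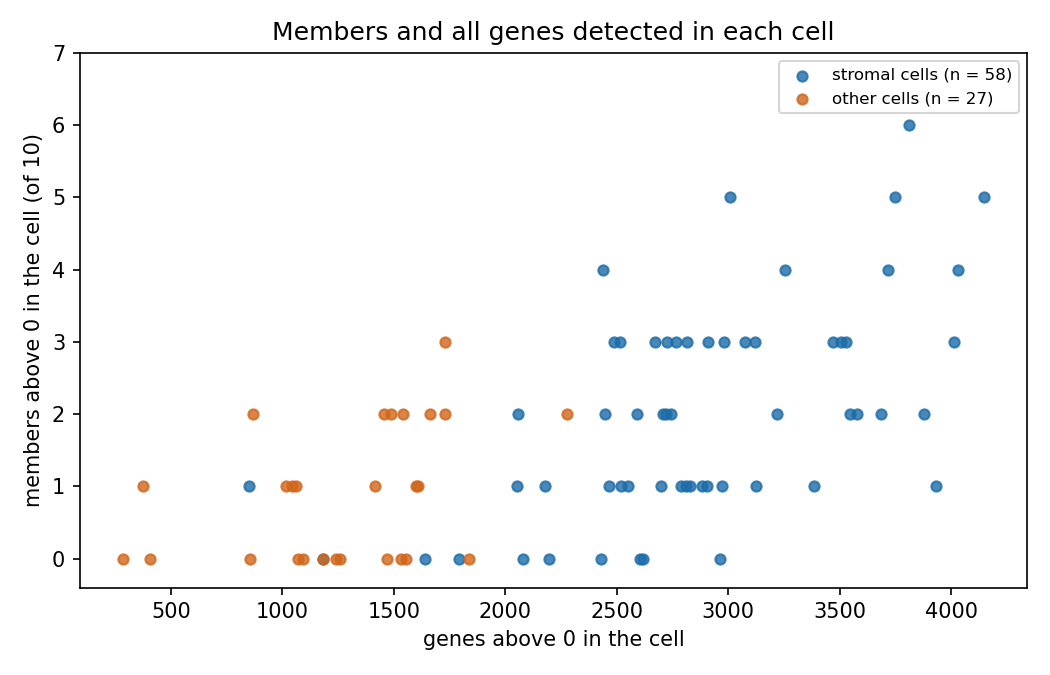
Number of the 10 members above 0 (y axis) against number of all genes above 0 (x axis) in each stromal cell (blue, n = 58) and other cell (orange, n = 27). Counts rise with the genes detected: the other cells reach at most 3 members, and the cells with 5 or 6 members are stromal cells with at least 3007 genes.

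The other genes of the pathway were examined in 7 lists. Of 85 genes listed, 54 were above 0 in at least 3 cells, and 22 of these were at least 1 higher in stromal cells and 0 in other cells, with a median difference of 0.77. These 22 genes are 40.7% of those tested, compared with 35.6% of all genes. In the list of other steps of mitochondrial beta-oxidation, 11 of 15 genes were higher in stromal cells, with a median of 1.24. This list also holds 6 enzymes that break down propionate and valine, of which 4 were among the 11 (Hibadh, Pccb, Mut and Mcee), while 7 of the other 9 were. The 9 and 6 genes were told apart after their values were seen. Acat1, the thiolase that releases acetyl-CoA from short chains, was above 0 in 26 stromal and 2 other cells, with a difference of 3.25, and Echs1, the short-chain enoyl-CoA hydratase, was above 0 in 18 and 0 cells, with 2.52. The smallest differences among genes in at least 10 cells were those of the enoyl-CoA isomerases Eci2 (0.86) and Eci1 (1.11). The electron transfer flavoprotein, which takes the electrons from Acadvl, Acadl and Acadm, was above 0 in more stromal cells than any of the 3 dehydrogenases. Its subunits Etfa and Etfb were above 0 in 27 and 28 of 58 stromal cells and in 4 and 7 of 27 other cells, with differences of 2.99 and 2.08, while the third gene of the list, Etfdh, chosen after its value was seen, had 0.17.

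The shares to set beside the remaining lists are 35.6% of all genes tested and 60.3% of those above 0 in at least 10 cells. Of the genes of carnitine handling, 0 of 6 were higher in stromal cells. Among acyl-CoA synthetases it was 1 of 5, Acsl5 (17 stromal and 2 other cells, difference 2.08), and Acsl4 had 0.70. Among other acyl-CoA dehydrogenases it was also 1 of 5, Acadsb (26 and 4 cells, 2.10), which acts on branched short chains, and Acad9 had 0.73. Of the peroxisomal genes, above 0 in a median of 10 cells, 5 of 9 (55.6%) were higher in stromal cells. The largest differences were those of the thiolase Acaa1a (1.98) and the multifunctional enzyme Hsd17b4 (1.74). Abcd3, a peroxisomal membrane transporter, had 1.14. Of 11 regulators, 2 were higher in stromal cells: Prkab2, a subunit of the energy sensor AMPK (10 and 1 cells, 1.55), and Acaca (9 and 0 cells, 1.02), the acetyl-CoA carboxylase, named although it lies outside the rule for genes named. None of the genes tested in the 7 lists was at least 1 higher in other cells.

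Fatty acid uptake ran the opposite way. Of the 5 genes listed, 4 were higher in other cells, and 1, Lpl, which encodes lipoprotein lipase, in stromal cells. Over all genes tested, 2.84% were higher in other cells and 35.6% in stromal cells. Fabp4, a fatty acid carrier, was above 0 in 55 of 58 stromal and 27 of 27 other cells, with mean log2(value + 1) of 3.65 ± 3.39 (SD, n = 58) and 13.55 ± 3.42 (SD, n = 27). Its median was 6.5 reads in stromal and 55884 reads in other cells, and 6 stromal and 25 other cells held at least 100 reads. Gpihbp1, which anchors lipoprotein lipase on capillary endothelium, had a difference of -9.53, Fabp5 of -3.65, and the fatty acid receptor Cd36, added after its value was seen, of -9.14. Lpl had a difference of 3.32 and was above 0 in 53 stromal and 15 other cells. The 4 genes higher in other cells, Fabp4, Gpihbp1, Fabp5 and Cd36, are known from capillary endothelium. Endothelial markers are given above. The other cells thus held higher values of these 4 genes than the stromal cells. The members were above 0 in few cells of either class. Their median share was 19.8% of stromal and 9.26% of other cells, compared with 15.5% and 3.70% for all genes tested.

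For comparison, 11 of 15 glycolysis genes (73.3%) and 10 of 18 genes of the tricarboxylic acid cycle (55.6%) were at least 1 higher in stromal cells and 0 in other cells, with medians of 1.55 and 1.31. These genes were above 0 in a median of 23 and 14.5 cells, and the share was 35.6% over all genes and 60.3% over those above 0 in at least 10 cells. Hk2, the hexokinase that traps glucose, had a difference of 5.71 and Aldoa, an aldolase, of 4.85, whereas Pfkp had 1.21 and Ldha 1.37. In the cycle, Sdhb had 3.33 and Ogdh 2.73, whereas Idh3g had 0.17 and Sdha 0.34. Hk2 was above 0 in 39 of 58 stromal and 2 of 27 other cells, more than any member in the stromal cells. Of cell types whose mitochondria are rich in these enzymes, few transcripts were seen. Among 10 adipocyte markers 2 had a row, and their sum ranged from 0 to 1834 CPM in stromal and from 0 to 1501 CPM in other cells, with Adipoq above 0 in 1 stromal cell. Among 6 muscle markers 1 had a row, Ttn, with up to 43.4 CPM in stromal cells and 0 in other cells. Their part in the values of the members was not tested.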

How the data were processed

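After FastQC, the authors aligned to mm9 (HISAT2 2.0.5, per the submitters' processing notes), then used SAMtools 1.4, StringTie 1.3.3 and the scaling of scater. The read counter is not given in the sources used here. They deposited a single table (85 cells, 16069 genes), of which every column was used. Its values, as deposited, are a signal: read counts after normalization. The table as a whole did not hold raw counts, so no count test was run. Genes above 0 in fewer than 10 cells held whole numbers, and 5404 genes fell into 13 groups with a factor per group and cell (0.0157 to 94.5). Dividing by it gave recovered reads, from 1146945 to 4776510 per cell (median 2847986), a method devised after the values were seen. Of all values, 3 were not whole multiples within the larger of 0.0001 reads and a relative 6e-09, and were rounded. The factors of member values ran from 0.0409 to 75.5 for the 7 members with factors. The values of Crat, Cpt2 and Slc22a5 carried none. For 20 pairs of cell and gene group, fewer than 10 values were at hand to find the factor. Recovery was run on simulated data built from the same model of groups and factors, with a narrower range of factors. Class differences were planted as constants, which the subtraction returns by construction. Both runs check the code and not whether the model fits these data.

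The members and gene lists were chosen with earlier results of these data known. Means are of log2(value + 1), genes above 0 in at least 3 cells were tested, and a difference of at least 1 was counted. Shares have 95% Clopper-Pearson intervals (exact), and a count of 0 allows 3 cells of the total. Both cover counting error only. Named were all members, markers that check a class, for each list the 2 largest and 2 smallest differences among genes above 0 in at least 10 cells, and the 3 genes most correlated with Crat and with Hadhb. A gene that this rule names is not reported here. The lists were carnitine handling, acyl-CoA synthetases, other acyl-CoA dehydrogenases, other steps of mitochondrial beta-oxidation, electron transfer, peroxisomal beta-oxidation, regulators, fatty acid uptake, glycolysis and the tricarboxylic acid cycle. Markers covered stromal, endothelial, adipocyte, immune, smooth muscle and pericyte, mesothelial, and muscle cells. Of these, 2 of 8 immune markers had a row (up to 279 CPM in stromal cells, 0 in other cells), 4 of 8 of smooth muscle and pericytes (up to 1462 and 2013 CPM) and 6 of 6 mesothelial (up to 5569 and 0 CPM). Similar transcripts were sought by BLAST in GENCODE M21 (at least 90% identity over 200 bases). No doublet caller was run on the sorted single cells. Python 3.11.15, numpy 2.4.6, pandas 2.3.3, scipy 1.17.1 and matplotlib 3.10.9 were used.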

Additional observations from a re-analysis of the deposited data

How the results depend on the processing

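The median difference of the members between classes kept its direction under each alternative computed, between 0.44 with log2(value + 10) and 1.11 with log2(value + 0.1). Over all genes tested the median moved in step, from 0.64 to 0.35 and 0.95, and to 0.50 with log2(CPM + 1), which gave 0.61 for the members. The number of members at least 1 higher in stromal cells depended on the scale, since most lie near the rule. It was 3 as reported, 1 with log2(value + 10), 5 with log2(value + 0.1), 1 with log2(CPM + 1) of recovered reads, and 5 without the 5 cells with the fewest genes in each class. The background moved to 20.5%, 48.5%, 29.1% and 35.96% of genes. With log2(CPM + 1), the difference was 1.97 for Acadm, 0.84 for Acadvl and 0.83 for Cpt2. The deposited values of Cpt2 carried no factor. With the rule on log2 of the mean value, chosen after seeing the data, 5 members were higher in stromal and 3 in other cells (52.5% and 16.5% of all genes), and the median was 0.58 for the members and 1.204 for all genes. There, 5 members turned negative: Acadvl to -0.23, Acadl to -0.24, Hadhb to -1.65, Hadha to -1.78 and Slc25a20 to -4.08. The median number of members per other cell was 0 at 10 or more and 0 at 100 or more reads, in place of 1. Per stromal cell it was 1.5 and 1, in place of 2. At 100 or more reads, 9 of 10 members kept the larger share in stromal cells. The share of all genes that did so at this level was not computed. The alternative that calls every cell with Dcn above 0 stromal gave no value, because no other cell is left. No paired analysis was possible because the series holds 1 condition and no groups are compared across samples.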
